A study of Mus musculus with 6 samples.

Results

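Collagen is the main structural protein of connective tissue, and 38 genes of its pathway were followed in mouse liver with and without Sesn3: 23 genes for collagen chains and 15 for the enzymes and helpers that hydroxylate, fold, trim and crosslink them. They were picked by symbol from a list, out of 24421 gene symbols in the count table, and all 38 symbols were in it. The list was drawn up with earlier results of these data known. RNA came from 3 liver samples of Sesn3 knockout mice (KO) and 3 of wild-type mice (WT), all C57BL/6 males at 4 months of age. For 4 weeks both genotypes had eaten the same diet, in which fat gave 40% of the energy, carbohydrate 40% and protein 20%; sodium cholate, a bile salt, was added at 0.5% and cholesterol at 1.25%. Every value below therefore comes from livers on that diet, and animals on another diet were not analysed here. Whether Sesn3 was deleted in all tissues or in some is not given in the sources used here. Sesn3 encodes sestrin 3, one of the sestrins, proteins induced by stress that restrain mTORC1 and favour AMPK.

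A collagen chain carries long stretches of the repeat Gly-X-Y, and chains wind around each other into a triple helix that has room for no side chain larger than glycine at its centre. Prolyl and lysyl hydroxylases modify the chains in the endoplasmic reticulum, a dedicated chaperone escorts the helix, proteinases cut off the propeptides outside the cell, and lysyl oxidases start the crosslinks that make fibrils tough. In liver, fibril-forming types I, III and V lie in portal tracts and the capsule and build up in fibrosis, where activated hepatic stellate cells and portal fibroblasts are their best known makers. Type IV belongs to basement membranes, type VI to beaded microfilaments, and type XVIII, made by hepatocytes among other cells, to basement membrane zones. 

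The repeat can be read in the genes themselves, and exons of 54 bases, a hallmark of fibril-forming collagen genes, show it in its shortest complete form. For each chain below, the first coding exon of exactly that length inside the longest unbroken run of the repeat is given in the sense of the gene, 5′ to 3′, from the principal transcript in GENCODE mouse release M21 (GRCm38, which is mm10). These 7 chains are shown because the fibrillar results turn on the first 5, and Col4a1 and Col6a1 stand beside them for the basement membrane and beaded filament classes. Capitals mark the first codon of each Gly-X-Y triplet, which always has the letters GGN and codes for glycine.
Col1a1, exon at chr11:94939904-94939957, + strand: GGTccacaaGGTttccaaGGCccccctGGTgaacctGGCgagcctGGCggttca
Col1a2, exon at chr6:4515481-4515534, + strand: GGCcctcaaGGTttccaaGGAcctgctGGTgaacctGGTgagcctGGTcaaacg
Col3a1, exon at chr1:45325360-45325413, + strand: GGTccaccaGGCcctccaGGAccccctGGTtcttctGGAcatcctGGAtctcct
Col5a2, exon at chr1:45422386-45422439, - strand: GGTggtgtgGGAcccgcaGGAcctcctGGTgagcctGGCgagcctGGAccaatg
Col27a1, exon at chr4:63245069-63245122, + strand: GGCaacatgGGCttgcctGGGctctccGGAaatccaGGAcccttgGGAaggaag
Col4a1, exon at chr8:11245211-11245264, - strand: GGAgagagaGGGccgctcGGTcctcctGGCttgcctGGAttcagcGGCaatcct
Col6a1, exon at chr10:76719623-76719676, - strand: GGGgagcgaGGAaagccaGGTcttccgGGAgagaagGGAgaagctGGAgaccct

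Each of these exons holds 6 triplets, and the chains differ in how long the repeat goes on. In Col1a1 the longest unbroken run was 338 triplets, in Col1a2 339 and in Col3a1 344. Those uninterrupted rods are what packs into a fibril. Col27a1, also a fibril-forming chain, had a longest run of 217 triplets. The basement membrane chain Col4a1 was broken up into 22 runs of 5 or more triplets, the longest of 40, and Col6a1 had a single main run of 87. Exons of 54 bases made up 21 of 51 exons in Col1a1, 24 of 52 in Col1a2 and 33 of 61 in Col27a1, but 2 of 52 in Col4a1.

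The 6 libraries held between 18882220 and 24098512 counts. Levels are given as CPM, a gene's counts relative to the total of its library, scaled by TMM factors, and differences as log2 fold changes of KO minus WT from edgeR's quasi-likelihood test, called at a Benjamini-Hochberg adjusted p under 0.05 over the 12945 genes tested. Sesn3 itself had 18, 18 and 16 counts in KO against 172, 200 and 195 in WT, low in every library labelled KO (log2 fold change -3.84, edgeR adjusted p = 0.00183). Some libraries stood apart in the collagen genes: KO replicate 3 was the lowest of the KO libraries in 27 of the 34 members tested (79.4%, against 31.7% of all genes tested), and WT replicate 2 the lowest of the WT libraries in 25 of 34 (73.5%, against 36.2%). Each call below is therefore followed by its fate when a library is left out. The labels list separate samples and do not say whether the 3 of a genotype came from 3 animals. A p-value here therefore sets the difference between genotypes against the spread between these samples, and against nothing wider.

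Many collagen chains were more abundant in the KO livers, with the largest rises in Col1a1, Col4a5, Col1a2 and Col3a1. Of the 38 members, 34 had enough counts to be tested; 13 were higher in KO, 1 was lower and 20 did not pass. Among all genes tested, 3.36% were called higher and 3.58% lower. The chains supplied 11 of the 13 higher members and the only lower one, out of 20 chains tested, and the maturation genes supplied 2 of 14. In 18 of the 34 members every KO library lay above every WT library and in 1 every KO library lay below, against 16.9% and 16.6% of all genes tested. The median log2 fold change over the 34 was 0.79, against 0.00 over all genes tested, and 28 were positive. Because the list was chosen with earlier results of these data known, the values over all genes give scale and no independent test. In bulk liver RNA, a difference in the number of cells that make collagen and a difference in RNA per cell cannot be told apart.

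The number of calls rested on the libraries used. With edgeR, 2 members were called higher without KO replicate 1, 0 without KO replicate 2, 3 without KO replicate 3, 14 without WT replicate 1, 11 without WT replicate 2 and 2 without WT replicate 3. Over all genes tested, the shares called higher in the same fits were 1.1%, 0.367%, 0.99%, 3.84%, 3.07% and 1%. Without KO replicate 2, 18 of the 34 members had an unadjusted p under 0.05, against 18.5% of all genes; with all libraries it was 19 members, against 25.8% of all genes. No member was called lower in any of the 6 fits, in which 1.15%, 0.405%, 0.997%, 3.49%, 3.6% and 1.21% of all genes were. Of the 14 called members, Col4a5 and Col14a1 passed in 5 of the 6 fits that leave out a library, and Col27a1 and Loxl4 in 0 of 6.

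The count also varied with the filter and the tool. With edgeR, 13 members were called higher with RLE factors (3.31% of all genes), with upper-quartile factors (3.75%), with library sizes alone (5.46%), with a filter of 1 CPM in 3 libraries (3.59%) and with no robust dispersion (3.48%). With no filter on low counts the number was 8 (2.94%), with DESeq2 17 (7.11%) and with limma-voom 12 (3.28%). The only lower member, Col27a1, was called with RLE factors (3.72% of all genes lower), no filter (2.81%), 1 CPM in 3 libraries (3.74%), DESeq2 (8.2%), limma-voom (3.42%) and no robust dispersion (3.66%), and not with upper-quartile factors (3.07%) or library sizes alone (1.99%).

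**Figure D1:**
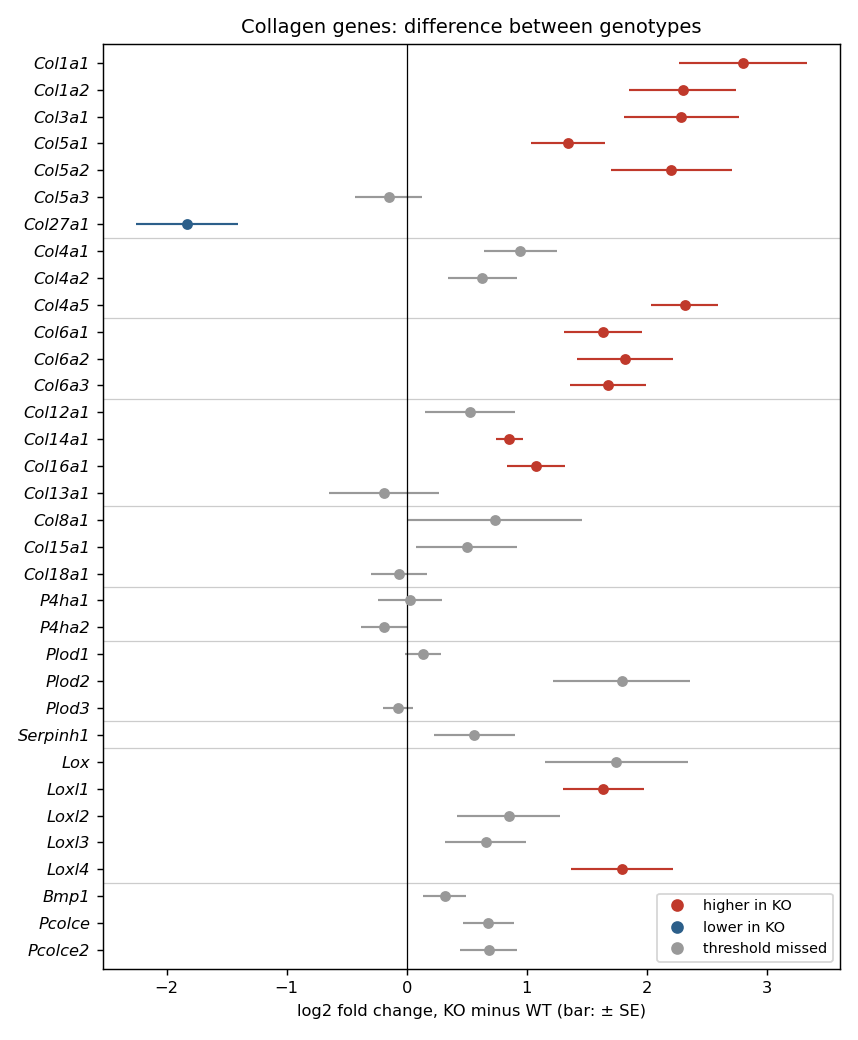
Log2 fold change of KO minus WT for the 34 collagen genes tested, one gene per line in blocks by class, with bars of ± SE from edgeR; red marks the 13 genes called higher in KO, blue the 1 called lower and grey the 20 that missed the threshold. The largest value is that of Col1a1 at 2.80, and the fibrillar chains other than Col5a3 and Col27a1 sit to the right of most maturation genes.

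Type I collagen, the chief fibril of scar tissue, held the largest rise. Col1a1, which encodes its alpha 1 chain (chromosome 11, 94936224 to 94953042, GRCm38), had 168, 201 and 132 CPM in KO replicates 1 to 3, against 40.5, 7.96 and 23.2 CPM in WT replicates 1 to 3. The lowest KO library was thus well above the highest WT library, while the WT libraries spread widely among themselves. The means were 167 ± 34.4 CPM in KO and 23.9 ± 16.3 CPM in WT (SD, n = 3 each), a 6.98-fold rise (log2 fold change 2.80, SE 0.53, edgeR adjusted p = 0.0289). Col1a2, for the alpha 2 chain of the same trimer, had 164, 180 and 125 CPM in KO against 52.5, 13.8 and 29.0 CPM in WT. Both type I genes thus had the same order of WT libraries, with replicate 1 highest and replicate 2 lowest. Col1a2 rose 4.92-fold (log2 fold change 2.30, SE 0.45, edgeR adjusted p = 0.0314).

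Type III collagen, which forms thin reticular fibrils and mixes with type I, followed. Col3a1 had 418, 393 and 291 CPM in KO against 121, 28.9 and 76.3 CPM in WT. It was the most abundant of the fibrillar chains in every library, also per kilobase of transcript, where it averaged 66.1 CPM per kb in KO and 13.5 CPM per kb in WT. Col3a1 rose 4.88-fold (log2 fold change 2.29, SE 0.48, edgeR adjusted p = 0.0383). Col1a1, Col1a2 and Col3a1 each passed without WT replicate 1 and without WT replicate 2, and missed without any of the 3 KO replicates or WT replicate 3, at edgeR adjusted p-values between 0.0730 and 0.106 for Col1a1, 0.0756 and 0.111 for Col1a2, and 0.0860 and 0.126 for Col3a1. Without WT replicate 1, which had the highest WT level, the log2 fold change of Col1a1 was 3.43. With no filter on low counts their edgeR adjusted p-values were 0.0636, 0.0599 and 0.0664.

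Type V collagen sits inside type I fibrils and limits their width. Col5a1 had 38.5, 38.9 and 27.2 CPM in KO against 19.3, 8.20 and 13.7 CPM in WT. The groups did not overlap, and the rise was 2.54-fold (log2 fold change 1.35, SE 0.31, edgeR adjusted p = 0.0464). Col5a2, which lies on chromosome 1 next to Col3a1, had 32.3, 35.0 and 23.4 CPM in KO against 11.3, 2.21 and 6.09 CPM in WT. That is a wider gap than for Col5a1, and the rise was 4.61-fold (log2 fold change 2.20, SE 0.50, edgeR adjusted p = 0.0473). Col5a3, the third chain of type V, did not follow: it had 7.02, 6.02 and 5.64 CPM in KO against 4.24, 8.02 and 8.49 CPM in WT, with overlapping groups and a log2 fold change of -0.15 (SE 0.28, edgeR adjusted p = 0.774). Col5a1 and Col5a2 kept their calls without WT replicate 1 or 2 and missed without any KO replicate or WT replicate 3, at edgeR adjusted p-values between 0.0809 and 0.157 for Col5a1 and between 0.0977 and 0.155 for Col5a2. The log2 fold change of Col5a2 was 2.86 without WT replicate 1, and with no filter on low counts its edgeR adjusted p was 0.0902.

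Col27a1 went the other way. It encodes a fibril-forming chain best known from cartilage (chromosome 4, 63214004 to 63334991, GRCm38). Its level was low in both genotypes: 1.78, 2.43 and 0.689 CPM in KO against 5.81, 6.69 and 5.02 CPM in WT. Every KO library lay below every WT library, and the gene was 3.55-fold lower in KO (adjusted p = 0.0460 with edgeR; log2 fold change -1.83, SE 0.42). The call was lost without any one of the 6 libraries (edgeR adjusted p between 0.0664 and 0.124), with upper-quartile factors (0.0530) and with library sizes alone (0.0665), and the direction held in all of these fits.

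**Figure D2:**
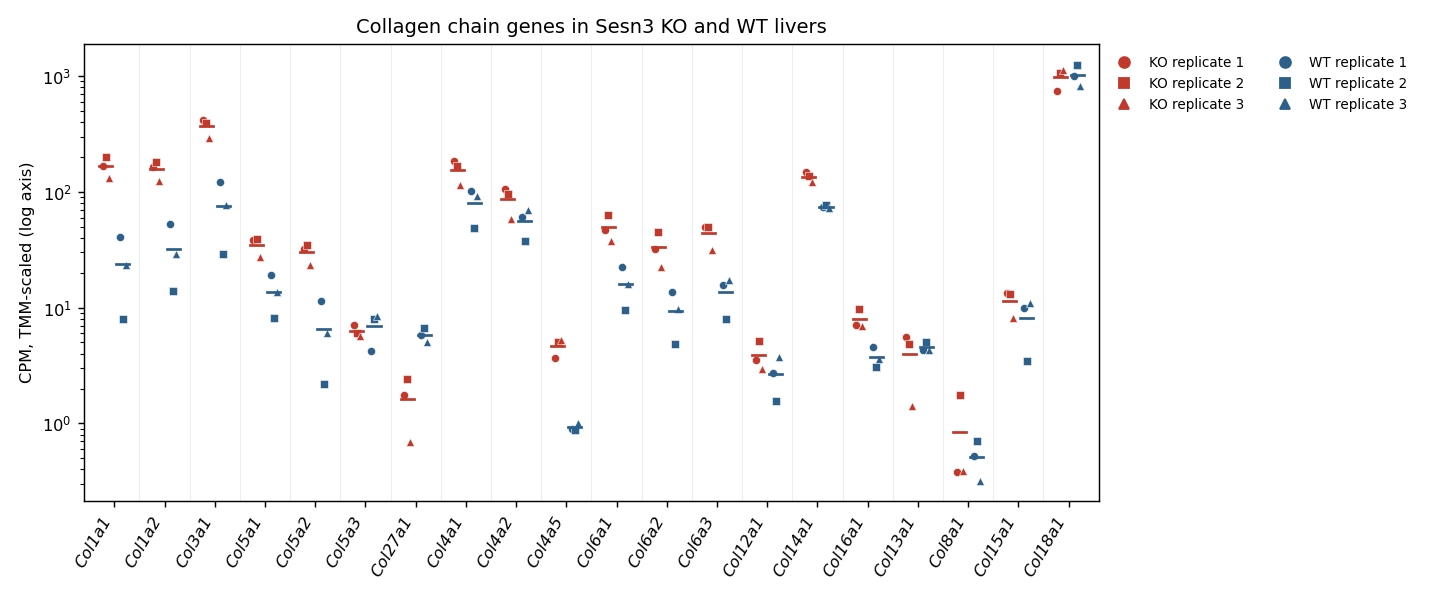
CPM of the 20 collagen chain genes tested, on a log axis, in the 3 KO libraries (red, left of each pair) and the 3 WT libraries (blue, right), with a marker shape per replicate and a bar at each group mean. In Col1a1 the KO libraries sit between 132 and 201 CPM and the WT libraries between 7.96 and 40.5 CPM, and the square of WT replicate 2 is the lowest blue point in most chains.

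Whether partner chains kept their proportion was read from ratios of counts within a library, which need no scaling factor. Such ratios compare genes of different length, so only their difference between genotypes is read. The ratio of Col1a1 to Col1a2 was 1.02, 1.11 and 1.05 in KO against 0.771, 0.576 and 0.801 in WT. The ratio was higher in every KO library than in any WT library. The ratio of Col3a1 to Col1a1 was 2.49, 1.96 and 2.21 in KO against 2.98, 3.63 and 3.29 in WT, lower in every KO library than in any WT library. The ratio of Col5a2 to Col5a1 was 0.840, 0.899 and 0.860 in KO against 0.587, 0.270 and 0.445 in WT. It differed by 1.07 on the log2 scale, the widest of the 6 ratios compared. In the basement membrane pair, the ratio of Col4a2 to Col4a1 was 0.565, 0.570 and 0.512 in KO against 0.596, 0.770 and 0.747 in WT. In these 4 ratios the groups did not overlap, and each reached an exact two-sided permutation p = 0.1, the smallest that 3 libraries against 3 allow (0.15 after Benjamini-Hochberg adjustment over 6 ratios), so no ratio could pass the threshold. The type VI ratios overlapped: Col6a2 to Col6a1 differed by 0.20 on the log2 scale (exact permutation p = 0.3, adjusted 0.36) and Col6a3 to Col6a1 by 0.04 (exact permutation p = 1, adjusted 1).

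**Figure D3:**
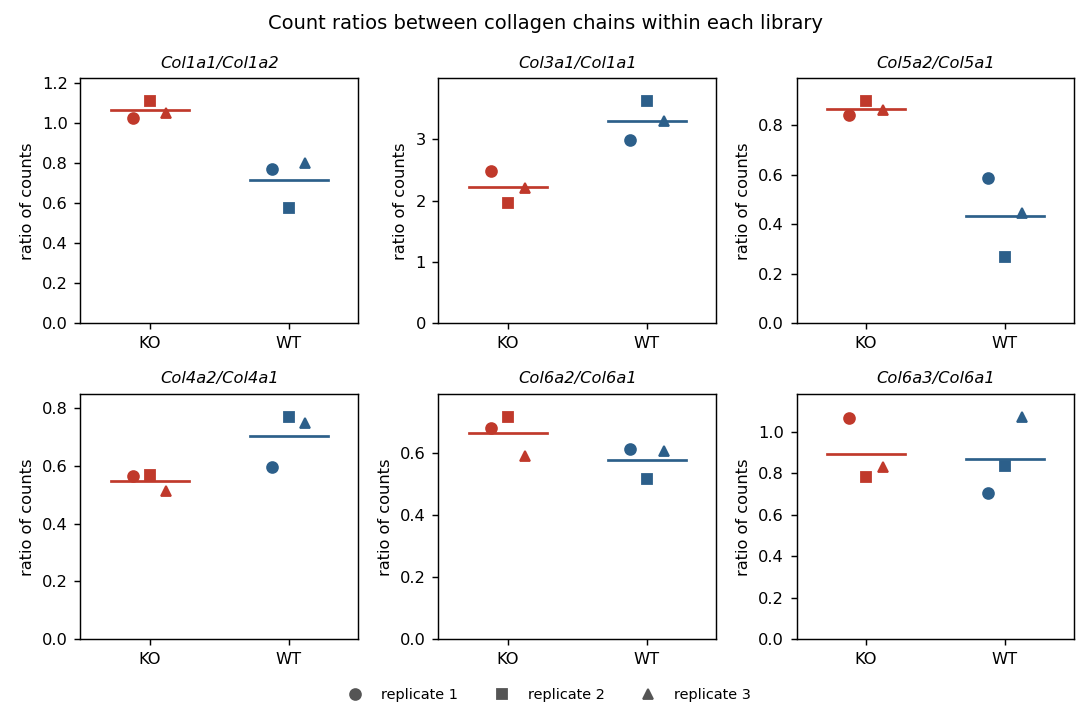
Ratio of counts between 2 collagen chains in each library, KO in red on the left and WT in blue on the right of each panel, with a marker per replicate, a bar at the group mean and axes that start at 0. The first 4 panels show groups that do not overlap, such as Col1a1 to Col1a2 at 1.02 to 1.11 in KO and 0.576 to 0.801 in WT, and the type VI panels show groups that do.

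Type IV collagen, the network of basement membranes, showed a smaller difference in its common chains than in a rare one. Col4a1 had 186, 168 and 114 CPM in KO against 101, 48.5 and 92.7 CPM in WT. The groups did not overlap, but the log2 fold change of 0.95 (SE 0.30) missed the threshold with edgeR (adjusted p = 0.107) and passed with DESeq2 (adjusted p = 0.0261). Col4a2, its partner in the same trimer, had 105, 95.6 and 58.2 CPM in KO against 60.3, 37.3 and 69.3 CPM in WT, with overlapping groups (log2 fold change 0.63, SE 0.29, edgeR adjusted p = 0.223). Both genes lie head to head on chromosome 8, where their annotated spans overlap by 22 bases. Col4a5, on the X chromosome, encodes a chain of the type IV trimers found in kidney and other special basement membranes. It had 3.63, 5.06 and 5.21 CPM in KO against 0.890, 0.872 and 1.01 CPM in WT, low but clearly apart. It rose 4.98-fold (log2 fold change 2.32, SE 0.28, edgeR adjusted p = 0.00714), the smallest p of the members, and missed only without KO replicate 2 (edgeR adjusted p = 0.0530). Its usual partners were barely read. Col4a3 had 7, 10 and 10 counts in KO against 1, 6 and 3 in WT, too few to be tested. Col4a4 had 5, 16 and 11 counts in KO against 5, 7 and 3 in WT, also too few. Col4a6, another type IV chain outside the members, had 1, 14 and 11 counts in KO against 7, 9 and 6 in WT and was not tested.

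The 3 classical chains of type VI collagen, Col6a1, Col6a2 and Col6a3, all rose. Their products join in one trimer, which forms beaded microfilaments near basement membranes. Col6a1 had 46.9, 63.2 and 37.96 CPM in KO against 22.2, 9.48 and 16.0 CPM in WT and rose 3.10-fold (log2 fold change 1.63, SE 0.32, edgeR adjusted p = 0.0335). Col6a2 had 32.0, 45.3 and 22.4 CPM in KO against 13.6, 4.88 and 9.72 CPM in WT and rose 3.53-fold (log2 fold change 1.82, SE 0.40, edgeR adjusted p = 0.0430). Col6a3 had 50.04, 49.5 and 31.5 CPM in KO against 15.7, 7.91 and 17.2 CPM in WT and rose 3.21-fold (log2 fold change 1.68, SE 0.32, edgeR adjusted p = 0.0284). In none of the 3 did the genotypes overlap, and their fold changes lay within 1 SE of each other. Col6a1 and Col6a2 missed without any KO replicate or WT replicate 3 (edgeR adjusted p between 0.0673 and 0.118, and between 0.0715 and 0.146), and Col6a3 without KO replicate 1, KO replicate 2 or WT replicate 3 (between 0.0654 and 0.109). With no filter on low counts Col6a2 had an edgeR adjusted p of 0.0668. Col6a6, a relative of Col6a3, had 1.44, 0.810 and 0.862 CPM in KO against 0.419, 0.581 and 0.427 CPM in WT and was not called (edgeR adjusted p = 0.158).

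Col14a1 and Col16a1 rose among the fibril-associated collagens, which coat fibrils rather than form them, and Col12a1 was not called. Col14a1 had 147, 136 and 122 CPM in KO against 73.8, 77.6 and 72.5 CPM in WT, the tightest groups for their mean of any called chain. It rose 1.81-fold (log2 fold change 0.86, SE 0.12, edgeR adjusted p = 0.0106) and missed only without KO replicate 2 (edgeR adjusted p = 0.0624). Col16a1 had 7.10, 9.72 and 6.94 CPM in KO against 4.61, 3.08 and 3.58 CPM in WT. Here too the groups were apart, and the rise was 2.11-fold (log2 fold change 1.08, SE 0.24, edgeR adjusted p = 0.0421). The call for Col16a1 held without WT replicate 1 and was lost without any of the other 5 libraries (edgeR adjusted p between 0.0693 and 0.167). Col12a1, a close relative of Col14a1, averaged 3.87 ± 1.16 CPM in KO and 2.68 ± 1.09 CPM in WT (SD, n = 3 each) and was not called (edgeR adjusted p = 0.418). Col13a1, a transmembrane collagen, averaged 3.97 ± 2.24 CPM in KO and 4.54 ± 0.401 CPM in WT and was not called either (edgeR adjusted p = 0.828).

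The most abundant chain by far did not differ detectably. Col18a1, whose C-terminal fragment is endostatin, had 747, 1057 and 1138 CPM in KO against 999, 1251 and 825 CPM in WT, with overlapping groups and a log2 fold change of -0.06 (SE 0.24, edgeR adjusted p = 0.890). Col15a1, its closest relative, averaged 11.5 ± 2.99 CPM in KO and 8.11 ± 4.08 CPM in WT (SD, n = 3 each; edgeR adjusted p = 0.497). Col8a1, a short network-forming chain, averaged 0.848 ± 0.803 CPM in KO and 0.514 ± 0.189 CPM in WT (edgeR adjusted p = 0.563). Neither edgeR, DESeq2 nor limma-voom called any of the 3, and 0 of them had an unadjusted p under 0.05. Col7a1, the anchoring fibril chain, had 2, 3 and 1 counts in KO against 0, 0 and 4 in WT and was too low to be tested.

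With the fibrillar chains higher and Col18a1 not called, the make-up of the collagen transcripts was different. Per kilobase of principal transcript, Col1a1, Col1a2 and Col3a1 together made up 33.3%, 29.1% and 23.7% of the summed CPM per kb of the 23 chains in KO, against 12.6%, 2.96% and 9.20% in WT. Col18a1 made up 38.7%, 46.5% and 57.4% in KO against 68.3%, 84.7% and 68.8% in WT. The KO libraries are apart from the WT libraries in both shares. With Col18a1 left out of the total, the share of the 3 fibrillar chains was 54.3%, 54.5% and 55.5% in KO against 39.64%, 19.35% and 29.45% in WT. On that footing the KO libraries were nearly alike, while the WT libraries kept their spread.

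**Figure D4:**
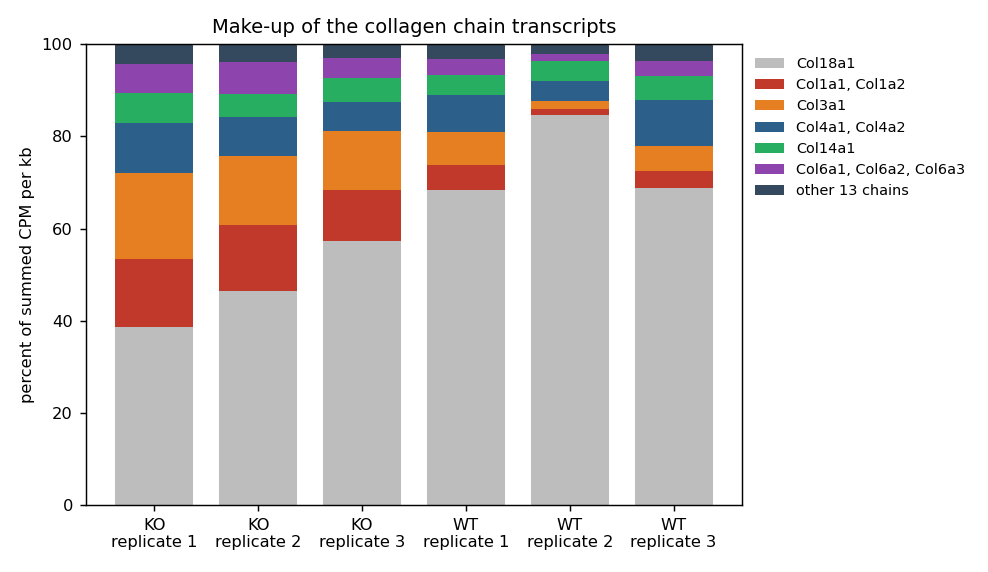
Share of each chain or group of chains in the summed CPM per kilobase of the 23 collagen chains, one stacked bar per library, KO on the left and WT on the right. Col18a1 in grey takes 38.7% to 57.4% of the KO bars and 68.3% to 84.7% of the WT bars, and the type I and III chains in red and orange take 23.7% to 33.3% of the KO bars and 2.96% to 12.6% of the WT bars.

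None of the prolyl 4-hydroxylase subunits, the lysyl hydroxylases or the chaperone gene Serpinh1 passed with edgeR. Prolyl 4-hydroxylases make the hydroxyproline that keeps the helix stable at body temperature, and P4ha1 and P4ha2 encode their catalytic subunits. P4ha1 had 21.2, 18.1 and 15.7 CPM in KO against 25.0, 11.97 and 16.9 CPM in WT (log2 fold change 0.03, SE 0.27, edgeR adjusted p = 0.958). P4ha2 had 14.5, 12.7 and 8.83 CPM in KO against 14.1, 12.9 and 13.9 CPM in WT (log2 fold change -0.19, SE 0.20, edgeR adjusted p = 0.592). The groups overlapped in both, neither DESeq2 nor limma-voom called them, and 0 of the 2 had an unadjusted p under 0.05; P4ha3 had at most 2 counts in any library. Serpinh1, which encodes the collagen chaperone HSP47, had 64.5, 51.2 and 33.1 CPM in KO against 38.4, 19.7 and 42.5 CPM in WT, again with overlap (log2 fold change 0.56, SE 0.34, edgeR adjusted p = 0.336). 

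Of the lysyl hydroxylases, which prepare lysines for crosslinking and for sugars, Plod2 stood nearest to a call. Plod2, the enzyme for lysines in the telopeptides, had 2.66, 2.01 and 1.51 CPM in KO against 1.05, 0.174 and 0.534 CPM in WT. The groups did not overlap and the log2 fold change was 1.79 (SE 0.57), with an adjusted p of 0.101 from edgeR and 0.0301 from DESeq2. Left without WT replicate 1, its log2 fold change was 2.51 (edgeR adjusted p = 0.0502). Plod1 averaged 113 ± 7.29 CPM in KO and 103 ± 18.1 CPM in WT (SD, n = 3 each; edgeR adjusted p = 0.604). Plod3 averaged 36.3 ± 1.68 CPM in KO and 38.2 ± 5.07 CPM in WT (edgeR adjusted p = 0.748), and 529 bases of its exons are shared with Znhit1 on the other strand.

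Lysyl oxidases, the copper enzymes that oxidise lysines to start crosslinks, held both of the called maturation genes. Loxl1, best known for its part in elastic fibres, had 8.58, 14.4 and 9.87 CPM in KO against 4.81, 2.09 and 3.63 CPM in WT. It rose 3.11-fold with no overlap (log2 fold change 1.64, SE 0.34, edgeR adjusted p = 0.0341) and missed without any KO replicate or WT replicate 3 (edgeR adjusted p between 0.0709 and 0.131). Loxl4 had 16.4, 6.56 and 6.94 CPM in KO against 3.61, 2.97 and 2.03 CPM in WT, with KO replicate 1 far above the other KO libraries. It rose 3.47-fold (log2 fold change 1.79, SE 0.42, edgeR adjusted p = 0.0491), but missed without any one library (edgeR adjusted p between 0.0612 and 0.141) and with limma-voom (adjusted p = 0.0888). Without KO replicate 1 its log2 fold change was 1.24.

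Lox, the founding member of the family, had 3.30, 4.09 and 1.81 CPM in KO against 1.67, 0.291 and 0.748 CPM in WT. Its groups were apart by a narrow margin, and its log2 fold change of 1.75 (SE 0.60) missed the threshold with edgeR (adjusted p = 0.120) and passed with DESeq2 (adjusted p = 0.0381) or without WT replicate 1 (log2 fold change 2.55, edgeR adjusted p = 0.0475). Loxl2, which acts on type IV collagen, had 11.9, 15.9 and 8.36 CPM in KO against 9.84, 2.97 and 7.26 CPM in WT, with overlap (log2 fold change 0.85, SE 0.43, edgeR adjusted p = 0.262). Loxl3 averaged 4.52 ± 0.279 CPM in KO and 2.86 ± 1.33 CPM in WT (SD, n = 3 each; log2 fold change 0.66, edgeR adjusted p = 0.261). It passed without WT replicate 1 (edgeR adjusted p = 0.0491), and 535 bases of its exons are shared with Htra2 on the other strand.

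In propeptide trimming, 0 of 3 genes passed with edgeR, and 2 had an unadjusted p under 0.05, as had 25.8% of all genes. Bmp1, the procollagen C-proteinase, had 71.1, 96.9 and 104 CPM in KO against 70.3, 84.9 and 63.1 CPM in WT, with overlap (log2 fold change 0.32, SE 0.18, edgeR adjusted p = 0.310). Pcolce, which enhances that cut, had 26.4, 20.4 and 18.1 CPM in KO against 16.5, 10.52 and 13.4 CPM in WT. Its groups did not overlap, and its adjusted p was 0.0963 with edgeR and 0.0492 with DESeq2 (log2 fold change 0.68, SE 0.21). Pcolce2, its relative, averaged 6.92 ± 1.598 CPM in KO and 4.31 ± 0.586 CPM in WT (SD, n = 3 each), also without overlap (log2 fold change 0.68, edgeR adjusted p = 0.121).

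**Figure D5:**
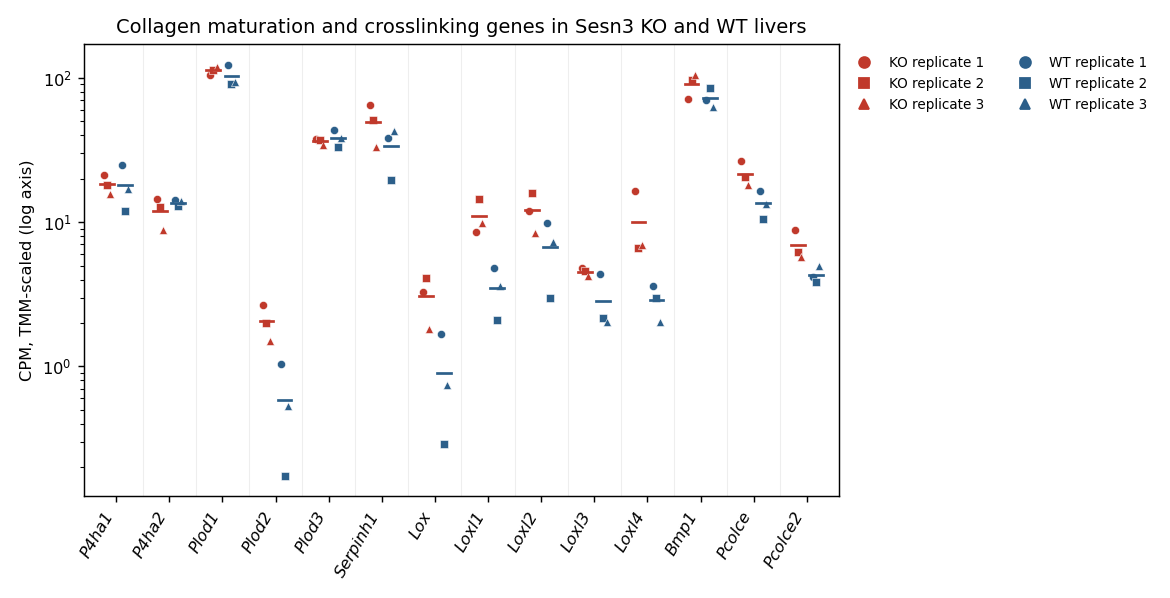
CPM of the 14 maturation and crosslinking genes tested, on a log axis, in the 3 KO libraries (red, left of each pair) and the 3 WT libraries (blue, right), with a marker shape per replicate and a bar at each group mean. Loxl1 and Loxl4 show separate groups and were called, Plod2, Lox, Pcolce and Pcolce2 show separate groups and were not, and the other 8 genes overlap.

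Genes that work beside these members were read from lists of their own. Calls in these lists and in the marker lists below stand beside the shares over all genes tested. With edgeR those shares were 3.36% higher and 3.58% lower, with DESeq2 7.11% and 8.2%, and with limma-voom 3.28% and 3.42%. Of 17 other genes of collagen folding and modification, all tested, 2 rose. Fkbp10, whose product FKBP65 assists type I folding and telopeptide lysine hydroxylation, had 6.76, 5.83 and 4.48 CPM in KO against 1.83, 1.92 and 2.14 CPM in WT, groups far apart for so low a gene. It rose 2.90-fold (log2 fold change 1.53, SE 0.25, edgeR adjusted p = 0.0174). P3h3, which acts with PLOD1 on lysines of the helix, averaged 7.69 ± 0.902 CPM in KO and 4.31 ± 0.573 CPM in WT (SD, n = 3 each; log2 fold change 0.83, edgeR adjusted p = 0.0488). The call for Fkbp10 was lost without KO replicate 1, KO replicate 2 or WT replicate 3 (edgeR adjusted p up to 0.0873), and that for P3h3 without any library but WT replicate 1 (up to 0.182), with RLE factors (0.0511), with no filter on low counts (0.0522) and with limma-voom (0.0520). The median log2 fold change of the list was 0.39.

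Of 13 genes for the export of procollagen from the endoplasmic reticulum, 1 fell. Sar1b, a small GTPase that builds COPII coats and is also needed for chylomicron and lipoprotein export, averaged 74.9 ± 7.66 CPM in KO and 117 ± 8.14 CPM in WT (SD, n = 3 each; log2 fold change -0.65, edgeR adjusted p = 0.0270). Its call was lost without any KO replicate or WT replicate 3 (edgeR adjusted p up to 0.112) and with library sizes alone (0.05004). Among other propeptide proteinases, 3 of 7 were tested and 1 rose. Adamts2, the procollagen N-proteinase, had 22.4, 28.8 and 19.2 CPM in KO against 9.16, 5.99 and 10.2 CPM in WT, with no overlap. It rose 2.78-fold (log2 fold change 1.48, SE 0.24, edgeR adjusted p = 0.0174) and missed without KO replicate 1 or 2 (edgeR adjusted p up to 0.0777).

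Among collagen receptors and uptake genes, 7 of 10 were tested and 1 rose. Ddr1, a receptor tyrosine kinase switched on by collagen, had 39.8, 31.3 and 30.8 CPM in KO against 6.96, 2.91 and 5.98 CPM in WT. Even the lowest KO library was over 4 times the highest WT library. Ddr1 rose 6.41-fold (log2 fold change 2.68, SE 0.31, edgeR adjusted p = 0.00674) and passed in all 6 fits that leave out a library. Ddr2, the other collagen-activated kinase, averaged 6.00 ± 1.403 CPM in KO and 5.40 ± 0.827 CPM in WT, with overlap (log2 fold change 0.15, edgeR adjusted p = 0.724).

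Markers of the cells that could hold these transcripts were counted beside them. Of 17 markers of hepatic stellate cells and myofibroblasts, 16 were tested and 1 rose, against 3.36% of all genes. DESeq2 called 7 higher, against 7.11% of all genes. Of the 16, 15 were positive, against 6510 of all 12945 genes tested, and their median log2 fold change was 0.39. The summed level of the 17 was 558 to 658 CPM in KO against 467 to 576 CPM in WT, while Gfap had 3 to 11 counts per library. Pdgfra, a platelet-derived growth factor receptor of fibroblasts and stellate cells, averaged 18.3 ± 2.32 CPM in KO and 8.16 ± 1.06 CPM in WT (SD, n = 3 each; log2 fold change 1.17, edgeR adjusted p = 0.0118), and missed without KO replicate 2 (0.0669) or WT replicate 3 (0.0518). The myofibroblast gene Acta2 had 10.9, 16.6 and 4.27 CPM in KO against 4.45, 2.91 and 3.85 CPM in WT, with overlap (edgeR adjusted p = 0.1002). Pdgfrb, a receptor of stellate cells and pericytes, had 30.8, 27.4 and 21.4 CPM in KO against 18.3, 9.42 and 16.2 CPM in WT, without overlap (log2 fold change 0.86, edgeR adjusted p = 0.0911). The part of these cells in the collagen values was not tested.

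Per count of Pdgfrb in the same library, a measure added after the data had been seen, Col1a1 stood at 5.47, 7.32 and 6.17 counts in KO against 2.22, 0.846 and 1.43 counts in WT. Col3a1 stood at 13.6, 14.3 and 13.6 in KO against 6.61, 3.07 and 4.70 in WT. Neither ratio overlapped between the genotypes, and neither was tested; such a ratio does not separate cell number from RNA per cell. Col4a1 stood at 6.03, 6.12 and 5.32 in KO against 5.55, 5.15 and 5.71 in WT, where the groups overlapped. Per summed count of the stellate list, Col1a1 stood at 0.262, 0.305 and 0.236 in KO against 0.0703, 0.0170 and 0.0460 in WT. By that sum Col4a1 did not overlap either, at 0.289, 0.255 and 0.204 in KO against 0.176, 0.104 and 0.184 in WT. The sum includes Vim, which ran from 40.5 to 185 CPM among the WT libraries. The separation of Col4a1 is therefore read for the sum with Vim in it, and not for a sum without Vim. Per count of Lrat, another marker of that list, Col4a1 stood at 4.25, 5.54 and 3.95 in KO. In WT it stood at 3.91, 1.89 and 2.71, apart by a narrow margin.

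Of 10 macrophage markers tested, DESeq2 called 5 higher (7.11% of all genes) and limma-voom 3 (3.28%). The sum of the 10 was 1903 to 2362 CPM in KO against 794 to 1610 CPM in WT. With edgeR 8 were positive and 2 rose, against 3.36% of all genes called higher. Those 2 were Trem2, a receptor of lipid-laden macrophages, at 29.1 ± 5.01 CPM in KO and 4.70 ± 3.46 CPM in WT (SD, n = 3 each; edgeR adjusted p = 0.0240), and the Kupffer cell lectin Clec4f (edgeR adjusted p = 0.0352). Both missed without any KO replicate or WT replicate 3 (edgeR adjusted p up to 0.0963 for Trem2 and 0.107 for Clec4f), and the log2 fold change of Trem2, 2.62 with all libraries, was 3.44 without WT replicate 1. With edgeR, 0 of 10 portal fibroblast and mesothelial markers were called, and 5 had an unadjusted p under 0.05, against 25.8% of all genes. DESeq2 called 3 higher and 2 lower, against 7.11% and 8.2% of all genes. Their sum was 32.9 to 66.9 CPM in KO against 16.1 to 30.9 CPM in WT, and only KO replicate 2 was above 33.1 CPM. The sum hides a split between markers. In Entpd2, Eln and Dpt every KO library lay above every WT library (log2 fold changes 1.31, 2.29 and 1.29). In Gpm6a, Msln and Upk3b every KO library lay below (-0.97, -1.67 and -1.45), and the other 4 overlapped. Over all genes tested, every KO library lay above every WT library in 16.9% and below in 16.6%. The macrophage sums did not overlap between genotypes, and the portal sums were apart by a narrow margin. The part of macrophages and portal cells in the collagen values was not tested either. By edgeR, DESeq2 and limma-voom alike, 0 of 11 endothelial, 0 of 6 cholangiocyte and 0 of 7 lymphocyte markers were called, with 3, 1 and 1 at an unadjusted p under 0.05, as 25.8% of all genes were. The endothelial sum was 249 to 491 CPM in KO against 413 to 529 CPM in WT. The cholangiocyte sum was 112 to 131 CPM in KO against 70.6 to 110.7 CPM in WT, apart by a narrow margin. Most of it was Spp1, at 83.4, 83.5 and 103 CPM in KO against 84.2, 45.98 and 90.8 CPM in WT. In Spp1, as in all 6 cholangiocyte markers tested, the groups overlapped. The lymphocyte sum was 7.45 to 10.2 CPM in KO against 6.22 to 18.2 CPM in WT. Hepatocyte markers had sums of 90670 to 110700 CPM in KO against 87230 to 140500 CPM in WT. Alb made up most of the sum, averaging 76210 CPM in KO and 71750 CPM in WT, with overlap. Of the 7 tested, 6 had negative log2 fold changes, against 6435 of all 12945 genes tested. In Ttr, Apoa1 and Serpina1a every KO library lay below every WT library, as in 16.6% of all genes tested. With edgeR 0 of 7 were called and 3 had an unadjusted p under 0.05, as had 25.8% of all genes. DESeq2 called 3 lower, against 8.2% of all genes.

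Because Col1a2 and Col3a1 moved together, the 250 bases before each RefSeq transcription start were read for 4 short motifs on both strands. Col1a1 and Col5a2 rose with them but had no such window, and the windows of other chains that rose are not printed. The motifs were TATAAA, the core of one class of promoter, the CCAAT box, the Sp1 motif GGGCGG and the SMAD motif CAGAC, and no match to one overlaps a match to another. Capitals mark the matches, a reverse match being written as it stands on the printed strand; the sequences are RefSeq's, build GRCm38.p6.
Col1a2, chr6:4505368-4505617, + strand: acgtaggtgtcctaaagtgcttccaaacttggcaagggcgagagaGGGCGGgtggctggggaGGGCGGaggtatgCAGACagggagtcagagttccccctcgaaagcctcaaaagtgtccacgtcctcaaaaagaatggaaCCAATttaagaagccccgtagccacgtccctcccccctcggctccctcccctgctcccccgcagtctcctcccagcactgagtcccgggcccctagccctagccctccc
Col3a1, chr1:45311288-45311537, + strand: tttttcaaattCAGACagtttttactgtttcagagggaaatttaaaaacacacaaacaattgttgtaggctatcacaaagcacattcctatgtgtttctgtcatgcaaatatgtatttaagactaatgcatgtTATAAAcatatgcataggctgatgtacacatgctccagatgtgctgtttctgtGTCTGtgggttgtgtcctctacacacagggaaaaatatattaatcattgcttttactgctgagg

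Col1a2 had 2 matches to GGGCGG, 1 to CCAAT and 1 to CAGAC, and Col3a1 had 1 match to TATAAA and 2 to CAGAC. They share CAGAC alone, which was in 44.8% of the 29 windows available for 27 members and in 42.2% of all 32851 windows. GGGCGG was in 69% of the members' windows against 32.7% of all, CCAAT in 31% against 33.8% and TATAAA in 10.3% against 12.4%. These are counts of letters in one window per start and say nothing of what binds there.

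Some of the genes that rose are neighbours. On chromosome 1, Col3a1 (45311538 to 45349706) and Col5a2 (45374321 to 45503282) face each other with 24614 bases between their ends, and both rose. On chromosome 10, Col6a2 and Col6a1 lie on one strand 85161 bases apart and both rose, and Col18a1, 326009 bases further on, had overlapping groups. Col1a1 on chromosome 11 and Col1a2 on chromosome 6, the pair that forms one trimer, are on different chromosomes.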

How the data were processed

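Deposited by the authors was a single count table, with a column of raw whole-number counts for each library and a gene symbol for each line, which entered the tests unchanged. Tools named in the submitters' processing notes are STAR 2.5, Subread 1.5.3, featureCounts and edgeR 3.20.8, with the build mm10. Their roles, the annotation used, strandedness and the handling of multi-mapping reads were not given in the sources used here, so genes that share exons, as 13 of the 38 members do, are uncertain. Per the labels' protocols, RNA was extracted with Trizol and libraries were made from 1 µg with a TruSeq kit. The libraries, grouped by labelled genotype and numbered in accession order, held 18882220 to 24098512 counts. No 2 libraries agreed within sampling noise (chi-square per degree of freedom of 22.5 to 141 within groups).

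The test was that of edgeR 4.0.16 under R 4.3.3 (filterByExpr with a minimum count of 10 and total of 15, TMM, robust glmQLFit, two-sided F-test, Benjamini-Hochberg over 12945 genes). SE is the log2 fold change over the root of F. The script was tested on simulated data. The members and lists were chosen with earlier results of these data known. Values per sample are given for called members and a fixed set of others, and also for Col5a3 and Col18a1, which were outside that set. Acta2, Pdgfrb, Col6a6 and Ddr2 were named after their values were seen. As alternatives, the fit was repeated with RLE or upper-quartile factors, library sizes alone, no filter, 1 CPM in 3 libraries, DESeq2 1.42.0, limma-voom (limma 3.58.1), no robust dispersion, or with each library left out. Lengths and exons come from GENCODE, and promoters from RefSeq. Figures used matplotlib 3.10.9.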

Additional observations from a re-analysis of the deposited data

How the results depend on the processing

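The count of 13 higher members was 8 with no filter on low counts and 0 to 14 when 1 library was left out, and stayed between 12 and 17 otherwise. The count of 1 lower member was 0 under upper-quartile factors, under library sizes alone and when any 1 library was left out. Scaling by library size alone moved the median log2 fold change of all genes to 0.21 and that of the members to 1.00. There Col5a3 (0.067), Col13a1 (0.053), Col18a1 (0.15), P4ha2 (0.036) and Plod3 (0.13) turned positive, all below that shift. Some members with log2 fold changes near 0 turned sign when 1 library was left out. Col18a1 ranged from -0.19 to 0.11 and was 0.11 without KO replicate 1 or WT replicate 2. P4ha1 ranged from -0.19 to 0.35, with -0.08 without KO replicate 1, -0.19 without WT replicate 2 and -0.01 without WT replicate 3. Col8a1 ranged from -0.41 (without KO replicate 2) to 1.09, Col13a1 from -0.51 to 0.21 (without KO replicate 3), Plod3 from -0.17 to 0.034 (without WT replicate 1) and Col5a3 from -0.40 to 0.033 (without WT replicate 3). The log2 ratio difference of Col6a3 to Col6a1 ran from -0.10 to 0.21 when 1 library was left out, with -0.09 without KO replicate 1 and -0.10 without WT replicate 1. The other 5 ratios kept their direction. The cause of these changes was not tested. No paired analysis was possible because the labels give the libraries no replicate numbers that tie a KO sample to a WT sample. Depth limits the lowest members: Col4a3, Col4a4, Col7a1 and P4ha3 had too few counts to be tested.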

Other observations

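Beyond the members, 21 other collagen chain genes were listed, of which 2 had enough counts to be tested, Col6a6 and Col23a1. Col23a1, a transmembrane collagen, had 0, 13 and 13 counts in KO against 23, 11 and 11 counts in WT and was not called (edgeR adjusted p = 0.435), and neither was Col6a6. Of the 2, edgeR, DESeq2 and limma-voom called 0, with 1 at an unadjusted p under 0.05 (25.8% of all genes).

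The order of the libraries within a genotype was alike over many members. Among the 13 members called higher, KO replicate 3 was the lowest KO library in 10 and KO replicate 2 the highest in 8, while WT replicate 2 was the lowest WT library in 11 and WT replicate 1 the highest in 10. Over all genes tested, KO replicate 2 was the highest KO library in 26.7% and WT replicate 1 the highest WT library in 33.5%. WT replicate 2 also had the lowest sum of macrophage markers, 794 CPM, against 1610 and 1024 CPM in WT replicates 1 and 3, and the lowest Pdgfrb, 9.42 CPM. The part of these values in the spread of the WT collagen levels was not tested.

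Adamts14, a relative of Adamts2 that also trims procollagen N-propeptides, had 3.85, 6.68 and 3.53 CPM in KO against 2.15, 0.756 and 1.122 CPM in WT. The groups did not overlap, and the adjusted p was 0.0543 with edgeR and 0.00286 with DESeq2. Crtap, a member of the prolyl 3-hydroxylation complex, averaged 19.4 ± 3.64 CPM in KO and 11.2 ± 2.08 CPM in WT (SD, n = 3 each), with an adjusted p of 0.0582 with edgeR and 0.0115 with DESeq2. Mrc2, an endocytic collagen receptor, averaged 9.31 ± 1.39 CPM in KO and 4.10 ± 2.11 CPM in WT, with an adjusted p of 0.116 with edgeR and 0.0378 with DESeq2. These 3 were chosen after their values had been seen. Ppib, from the same folding list as Crtap, went the other way, with every KO library below every WT library. It averaged 247 ± 30.7 CPM in KO and 329 ± 32.4 CPM in WT. Its log2 fold change was -0.41, with an adjusted p of 0.143 with edgeR and 0.0486 with DESeq2.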
